A study of Rattus norvegicus with 2 samples.

Results

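Splicing factors were examined on 1 array of control cells and 1 array of sorted cells of YB2/0, a rat myeloma line. Members were the probe sets whose gene symbol in the array's annotation begins with HNRNP, SRSF, SF3A, SF3B, SNRP, PRPF or U2AF, or is PRP4K, SFPQ, NONO, PTBP1, TRA2A or TRA2B. By this rule 242 of 54613 probe sets were members, and they name 84 gene symbols. The rule reads gene symbols and no measured value, but it was chosen with earlier results of these data known. The control sample was untransfected YB2/0 cells. The sorted sample was YB2/0 cells that carried a cDNA library of human umbilical vein endothelial cells, brought in by retrovirus, and that had been selected by flow cytometry for binding serum IgG of patients with Takayasu arteritis. The study's text speaks of cloned cells for this comparison, and neither it nor the labels name the serum or the clone. Both samples were grown in conventional culture without treatment.

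Splicing removes introns from pre-mRNA in the spliceosome, which is built from small nuclear ribonucleoproteins (snRNPs) and many further proteins. Most of these snRNPs hold a ring of Sm proteins around their RNA. U2AF and the SF3A and SF3B complexes recognise the end of the intron and the branch point, and PRPF proteins act mostly in the tri-snRNP that completes the spliceosome. SR proteins, which carry arginine and serine repeats, mostly promote the use of an exon when bound to it, whereas the abundant hnRNP proteins coat nuclear RNA and often repress splice sites. Plasma and myeloma cells, like all nucleated cells, need these proteins, and their sequences are well conserved among mammals.

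The array's probe sets are named by human genes, so rat transcripts were read only as far as they hybridised to them. Each value is a MAS5 signal, an intensity on a linear scale, with a call of Present, Marginal or Absent for detection. Signals of different probe sets depend on how well their probes bind, so no gene's level is set against another's. Signal serves only to group probe sets by brightness and to choose some of the genes named. Across the array, 4929 probe sets were Present in control cells and 4556 in sorted cells. PROCR and SCARB1, the genes of the autoantigens found in the cloned cells, checked the labels. PROCR went from an Absent signal of 186 in control cells to a Present signal of 528933 in sorted cells. SCARB1 gained a Present call in sorted cells at 2 of 5 probe sets. Of 14 listed plasma cell and B lineage genes with a probe set, 4 were Present in at least 1 sample, and 5 of their 28 probe sets were Present in control cells against 1 in sorted cells. SDC1 was Present in both at 3390 in control and 4206 in sorted cells. CD27 went from 1353 to 253 and Absent, and PRDM1 from 1850 to 1113 and Marginal at 1 probe set. Another PRDM1 probe set went from 483 to 528 and Absent, and MS4A1 from 474 to 561 and Absent at 1 probe set. For this PRDM1 probe set and MS4A1 the call was lost although the signal was higher in sorted cells. The part of these lineage genes in the splicing results was not tested. Of 10 endothelial genes and of 6 T cell and macrophage genes, 0 were Present in either sample. The 18 hybridisation spike probe sets had log2 ratios of sorted over control between -0.58 and 0.57 (median 0.24), and the 24 polyA spike probe sets between -0.87 and 0.90 (median -0.48). With 1 array per condition there was no replicate error, no difference was tested, and the array run and the condition cannot be told apart. A lower signal can stem from fewer cells with the transcript or from less RNA per cell, which cannot be told apart in bulk RNA. The sorted cells carried human cDNA and the probe sets are named by human genes. A higher signal there can thus come from rat or from human transcripts, which were not told apart.

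Splicing probe sets were detected more often than the array as a whole. In both samples 58 of 242 members (24%) were Present, against 4.68% of all probe sets. In at least 1 sample 87 members (36%) were Present, against 12.5% of all. A further 14 of these 87 were Present in control cells only and 15 in sorted cells only. The remaining 155 members included 150 that were Absent in both samples, and 5 with a Marginal call. The difference from the array lay mostly in probe sets ending in _s_at or _x_at, which can bind several transcripts. Among these, 51 of 121 members (42.1%) were Present in both samples, against 8.41% of all such probe sets. Among gene-specific probe sets 7 of 121 members (5.79%) were, against 3.2% of all.

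**Figure D1:**
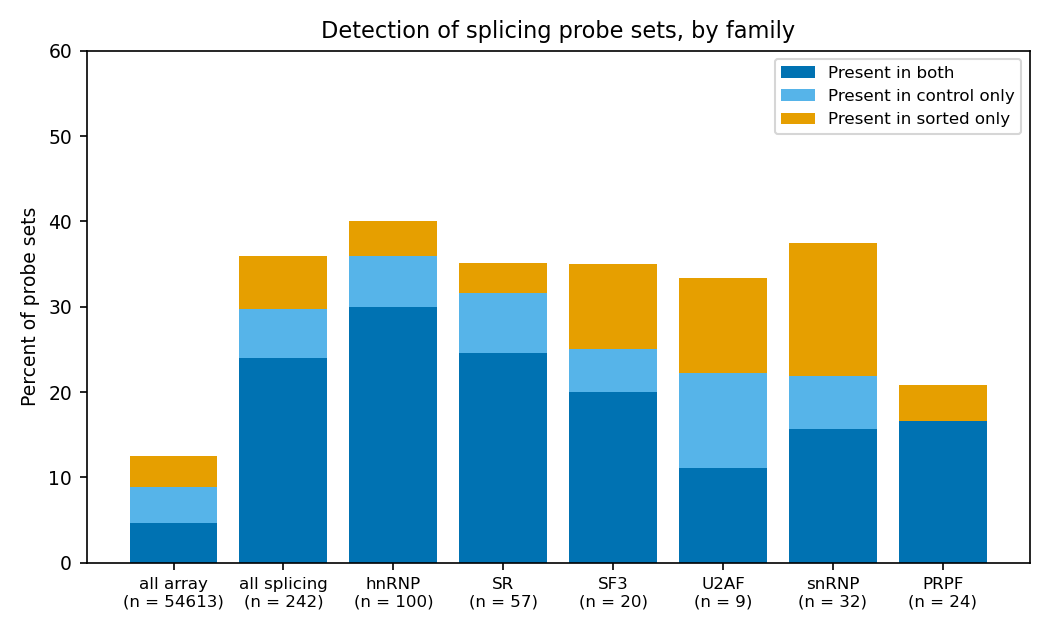
Percent of probe sets (vertical axis) that were Present in both samples, in control cells only or in sorted cells only, for all probe sets of the array, all splicing members and each family, with the number of probe sets under each bar. The share Present in both samples was 4.68% for the array, 24% for the members and 30% for the hnRNP family.

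By family, 30 of 100 probe sets were Present in both samples for hnRNP proteins with PTBP1, SFPQ and NONO, 14 of 57 for SR proteins with the TRA2 pair, 5 of 32 for SNRP genes, 4 of 24 for PRPF genes with PRP4K, 4 of 20 for SF3A and SF3B, and 1 of 9 for U2AF. Of the 84 symbols, 55 had a probe set Present in at least 1 sample. A rat gene of the same symbol or synonym was found for 73 of the 84. Some of the 55, such as HNRNPA1P10 and HNRNPUL2-BSCL2, were named only by probe sets shared with another gene. The 55 are therefore not a count of distinct rat genes. PRPF8, the central scaffold of the spliceosome, was Absent in both samples at its single probe set (1227 and 1420). SNRPC of the U1 snRNP and SNRPD1 and SNRPD2 of the Sm ring were likewise not Present in either sample. The same held for SRSF4, SRSF6, SRSF9, SRSF11, SF3A2, SF3A3, SF3B3, SF3B4, SF3B5, PRPF19 and PRPF31. Since the probes were designed for human genes, these calls do not show that the rat transcripts were missing.

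A member was taken as higher at a log2 ratio of at least 1, that is 2-fold, if Present in sorted cells, and as lower at 2-fold if Present in control cells. By this rule 8 members (3.31%) were higher, against 1.61% of all probe sets, and 6 (2.48%) were lower, against 1.77% of all. Because splicing probe sets were detected more often, the comparison among probe sets Present in both samples is closer. There, 5 of 58 members (8.62%) were higher, against 6.34% of all, and 4 (6.9%) were lower, against 4.15% of all. The members' shares were thus near those of the array, and 49 of the 58 stayed within 2-fold.

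**Figure D2:**
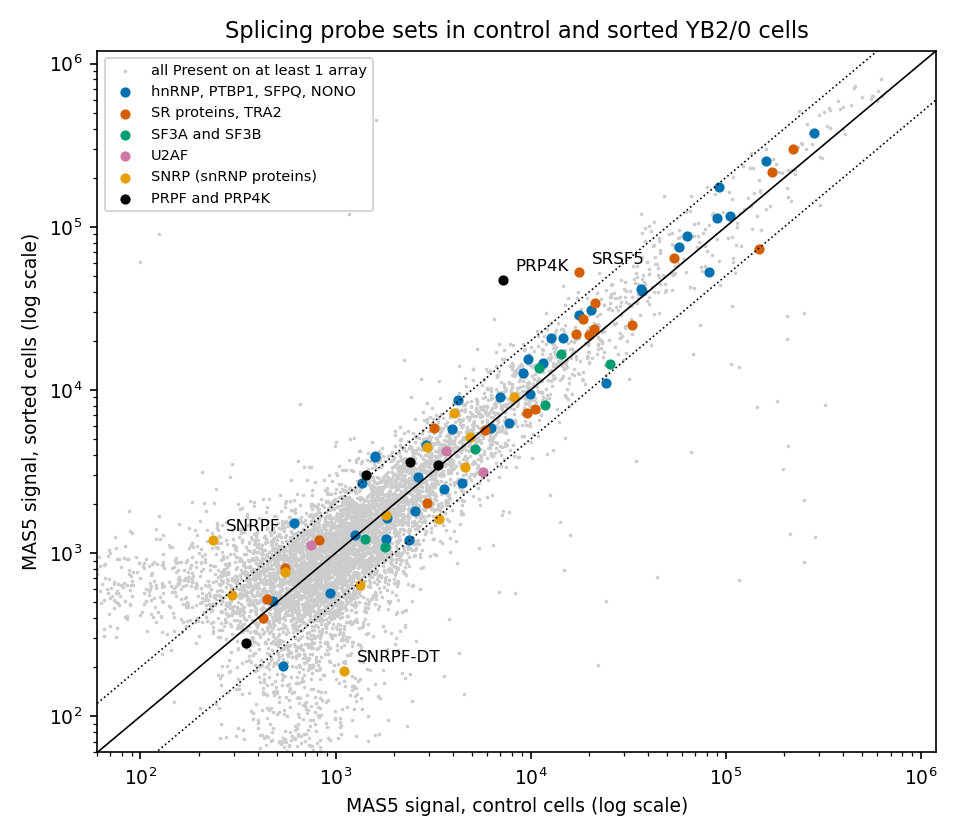
MAS5 signal in control cells (horizontal axis) and sorted cells (vertical axis), both on log scales, 1 array each. Coloured points are the 87 splicing probe sets Present on at least 1 array, grey points are all others Present on at least 1 array (198 with a signal under 60 lie outside the axes), with a solid line for equality and dotted lines at 2-fold; PRP4K lies at 7222 and 47491.

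Over the 58 members Present in both samples the median log2 ratio was 0.31, against 0.11 over all 2556 such probe sets, and 42 of the 58 (72.4%) were above 0, against 57.5% of all. The members' quartiles were -0.07 and 0.59. Signal moved with this result. The median control signal of these members was 11729, against 2584 over all probe sets Present in both samples, and the median log2 ratio of all probe sets was 0.01 over the 639 dimmest and 0.21 over the 639 brightest. The brightest included 39 of the 58 members, with a median of 0.33. After quantile normalization of the arrays the medians were 0.18 for members and 0.04 for all. The part of brightness in the members' median was not tested.

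The largest log2 ratio among members Present in both samples was that of PRP4K, a kinase of the tri-snRNP that phosphorylates other PRPF proteins. Its signal at probe set 202126_at was 7222 in control and 47491 in sorted cells, a difference of 6.58-fold (log2 ratio 2.72). It held rank 3 of the 2556 probe sets Present in both samples. A second PRP4K probe set, 211090_s_at, was Present in both samples as well, at 1431 and 2993, with a log2 ratio of 1.06 (0.95 after centring on all probe sets Present in both samples, under 2-fold). Both therefore lay above control, by different amounts. The other PRP4K probe sets, 202127_at (50.04 and 1032) and 237093_at (55.3 and 69.6), were Absent in both samples and give no level. PRPF6, a bridging protein of the tri-snRNP, had 2418 in control and 3613 in sorted cells (log2 ratio 0.58). PRPF3, which binds the paired RNAs of the same particle, had 3347 and 3490 (0.06). The 4 PRPF probe sets Present in both samples had a median of 0.82, and those at 2-fold were the PRP4K pair.

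Among SR proteins, SRSF5 was higher at 1 of its 2 probe sets Present in both samples. Probe set 203380_x_at had 17796 in control and 52951 in sorted cells (log2 ratio 1.57), and 212266_s_at had 21282 and 34210 (0.68). SRSF2 is read by 3 probe sets that also name MIR636, all Present in both samples. Of these, 214882_s_at was lower, with 147716 in control and 73244 in sorted cells (log2 ratio -1.01). The others pointed in different directions, with 10501 and 7689 at 200753_x_at (-0.45) and 221428 and 298144 at 200754_x_at (0.43). No common direction was seen for SRSF2.

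SRSF1, an SR protein that activates many exons, had 3 of 8 probe sets Present in both samples and the others Present in neither. It differed little and evenly at the 3 Present in both. Its signals in control and sorted cells were 173799 and 216162 at 211784_s_at, 54230 and 64569 at 208863_s_at, and 17117 and 21913 at 201742_x_at, with log2 ratios between 0.25 and 0.36. SRSF3, which also takes part in mRNA export, had 21070 and 23525 at 202899_s_at (log2 ratio 0.16). SRSF7 had 32959 and 25186 at 214141_x_at (-0.39) and 19924 and 21825 at 213649_at (0.13). Over the 14 SR probe sets Present in both samples the median was 0.21, with 9 above 0, 1 higher and 1 lower by the 2-fold rule. TRA2B, a splicing activator with SR repeats, was Present in control and Marginal in sorted cells at 2 probe sets, with 3214 and 5868 at 200892_s_at and 2960 and 2022 at 200893_at. Its other probe sets, and all 5 of its paralog TRA2A, were Absent in both samples.

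The hnRNP family held 30 of the 58 members Present in both samples and 40 of the 87 Present in at least 1. Over the 30 probe sets Present in both samples its median log2 ratio was 0.40, with 23 above 0. HNRNPA2B1, which also guides RNA transport, had 284663 in control and 377643 in sorted cells at 205292_s_at (log2 ratio 0.41, but 0.05 after quantile normalization), and 81753 and 53146 at 225932_s_at (-0.62). HNRNPD, which binds AU-rich RNA, had 105570 and 116280 at 221481_x_at (0.14), 36990 and 41746 at 200073_s_at (0.17) and 7722 and 6254 at 209330_s_at (-0.30). HNRNPK, which binds cytidine-rich RNA, had 92004 and 175366 at 200775_s_at (0.93), just under 2-fold. Its other probe set, 200097_s_at, went the other way, from 541 in control cells to 204 and Absent in sorted cells, 2.65-fold lower by these signals. Such folds set an Absent signal at the higher of its own value and the lowest Present signal of its array. That was its own value in each case here. An Absent signal is not a detected level, so these folds are not firm lower limits. With signals raised to the median Absent signal of the array the log2 ratio of 200097_s_at was -1.19, a smaller difference.

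HNRNPC, which binds uridine tracts, was higher at 2 probe sets that were Absent in control cells. By these signals 200014_s_at was 2.50-fold higher, with 1585 in control and 3962 in sorted cells, and 214737_x_at 2.43-fold, with 1596 and 3881. Another, 212626_x_at, was Present in both samples at 2919 and 4580 (log2 ratio 0.65). All 3 lay above control. A further HNRNPC probe set, 200751_s_at, had 597 and 31.9 but was Absent in both samples.

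HNRNPDL, a relative of HNRNPD, passed the rule in both directions. Probe set 212454_x_at had 613 in control and 1528 in sorted cells (log2 ratio 1.32). Probe set 201993_x_at had 24426 and 11064 (-1.14). The other HNRNPDL probe set Present in both samples, 1554678_s_at, had 1804 and 1224 (-0.56). The probe sets Present in both samples thus differed in direction. A further one, 209067_s_at, was Present at 2377 in control cells and Absent at 1195 in sorted cells.

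NONO and SFPQ form a pair of DNA- and RNA-binding proteins found in paraspeckles. NONO had 4248 in control and 8664 in sorted cells at 200057_s_at, with a log2 ratio of 1.03 that was 0.92 after centring, under 2-fold. Its other probe sets were not Present in either sample (858 and 898 at 208698_s_at, 1346 and 106 at 210470_x_at). SFPQ had 9090 and 12716 at 201585_s_at (0.48), and its other 4 probe sets were Absent in both samples. PTBP1, the polypyrimidine tract repressor, had 1 of 9 probe sets Present, 212016_s_at, which also names MIR4745, at 3579 in control cells and 2456, Absent, in sorted cells.

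**Figure D3:**
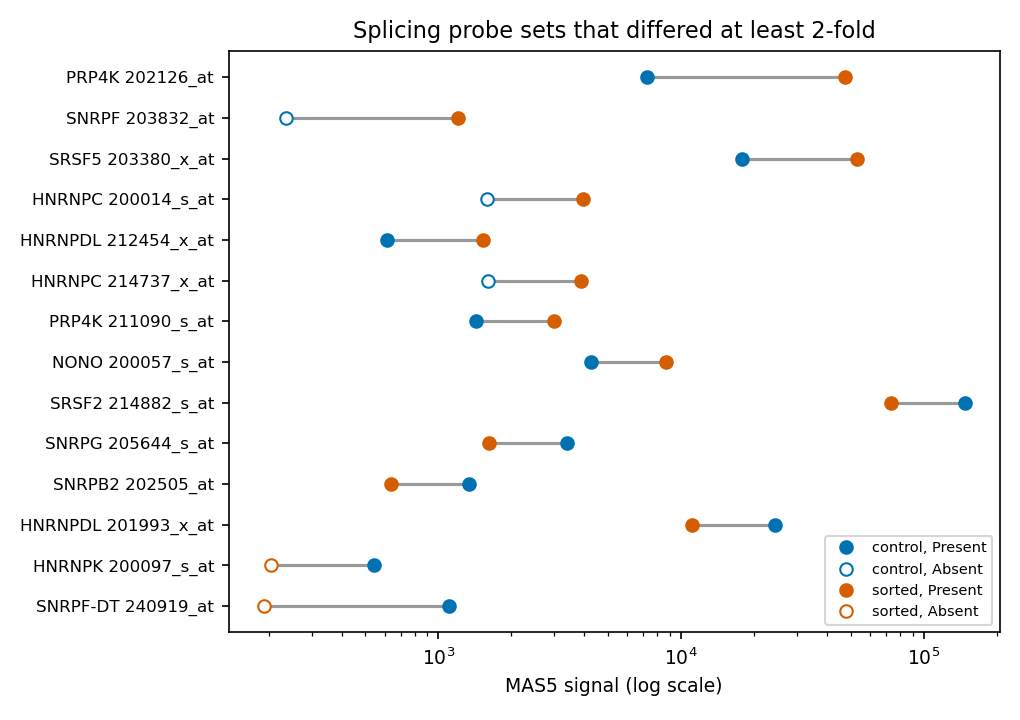
MAS5 signal (horizontal axis, log scale) in control and sorted cells of the 14 splicing probe sets that passed the 2-fold rule, ordered by log2 ratio. Filled circles are Present and open circles Absent; in 5 of the 14 an open circle shows that 1 array had no detected level.

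Sm ring proteins and other SNRP members showed no common direction. SNRPF, an Sm ring protein, was Absent at 236 in control cells and Present at 1209 in sorted cells at its single probe set 203832_at. It was 5.13-fold higher with the Absent signal set as described for HNRNPK (log2 ratio 2.33 with the raised signal). SNRPG, another ring protein, was lower, with 3387 in control and 1620 in sorted cells at 205644_s_at (log2 ratio -1.06). SNRPE had 8253 and 9038 at 203316_s_at (0.13), and SNRPB 4062 and 7173 at 213175_s_at (0.82). Proteins that share a ring were therefore higher, lower and within 2-fold at these probe sets. SNRPB2 of the U2 snRNP was lower, with 1338 and 638 at 202505_at (-1.07), while its partner SNRPA1 had 4896 and 5159 at 216977_x_at (0.08). SNRPA of the U1 snRNP was Present in control cells at 1822 and Absent in sorted cells at 1709. The rule also took in SNRPF-DT, a transcript divergent from SNRPF that is not a splicing factor. It was Present at 1104 in control cells and Absent at 191 in sorted cells, 5.79-fold lower by these signals (log2 ratio -2.22 with the raised signal). SNRPN, a tissue-restricted Sm protein, is named by 12 probe sets, and 1 of these, 240204_at, names it alone. It was Absent at 295 in control and Present at 557 in sorted cells, under 2-fold. Probe sets 201522_x_at, which also names SNURF, and 213447_at, which also names noncoding genes of the locus, were likewise Present in sorted cells only and under 2-fold.

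Among the 20 SF3A and SF3B and the 9 U2AF probe sets 0 passed the rule, where 1.61% of all probe sets were higher and 1.77% lower. SF3B1, the largest subunit of SF3B, was Present in both samples at 4 probe sets that split in direction. Its signals in control and sorted cells were 25406 and 14461 at 214305_s_at (log2 ratio -0.81), 11893 and 8053 at 201070_x_at (-0.56), 14362 and 16586 at 211185_s_at (0.21), and 11035 and 13710 at 201071_x_at (0.31). SF3B2 was Present in control cells only, at 1785 against 1095, and SF3A1 and SF3B6 in sorted cells only, each with a sorted signal below control. U2AF2, which binds the polypyrimidine tract, had 3668 and 4228 at 218381_s_at (0.21), whereas 218382_s_at went from 5731 to 3126 and Absent (-0.87). U2AF1, its partner at the intron's end, was Present in sorted cells only at 232141_at (745 and 1117).

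Probe sets of a gene gave a measure of how far readings of the same gene differ. Among 13 member genes with at least 2 probe sets of 1 symbol Present in both samples, the range of log2 ratio within a gene had a median of 0.58 and ran from 0.10 for SRSF1 to 2.46 for HNRNPDL. PRP4K (1.65), SF3B1 (1.13) and HNRNPA2B1 (1.03) also exceeded 1, which made 4 of the 13 (30.8%). In 6 of the 13 genes (46.2%) the probe sets had opposite signs. Over all 243 such genes of the array the median range was 0.56, 20.6% had a range over 1 and 46.1% had opposite signs. The widest range among them was the 2.46 of HNRNPDL. Probe sets of a gene share the 2 RNA samples and are not replicates of a condition.

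**Figure D4:**
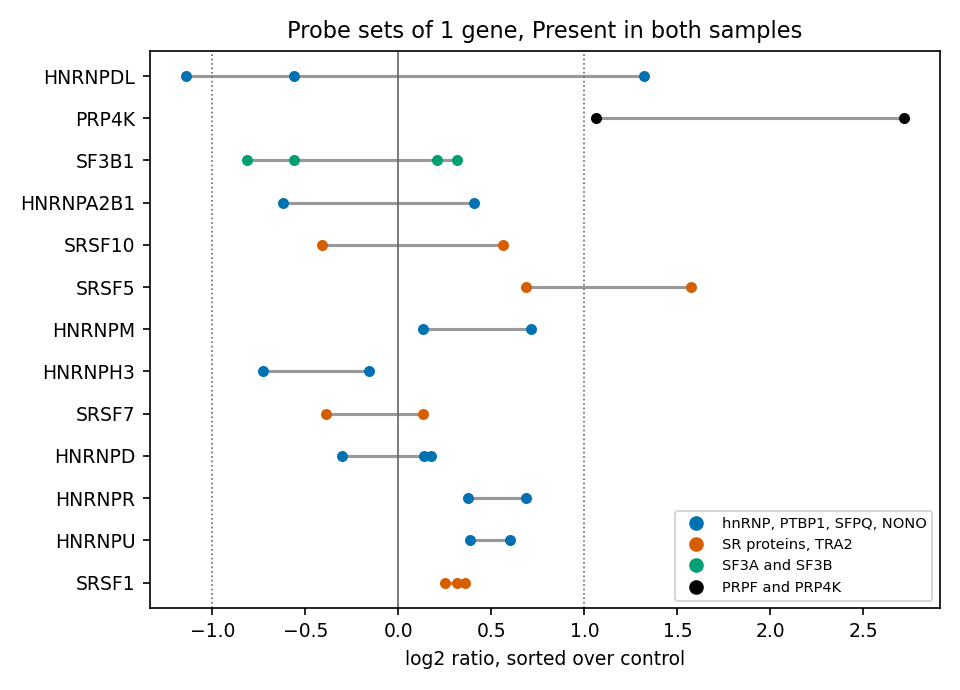
Log2 ratio of sorted over control signal (horizontal axis) of each probe set Present in both samples, for the 13 member genes with at least 2 such probe sets that name the gene alone. Points are probe sets coloured by family, grey lines join those of a gene, and dotted lines mark 2-fold; HNRNPDL spans -1.14 to 1.32 and SRSF1 0.25 to 0.36.

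Splicing genes outside the rule were taken from a list of 118 symbols, 109 of which had a probe set naming them alone. Of their 314 probe sets, 67 were Present in both samples, with a median log2 ratio of 0.25, and 43 of the 67 were above 0, against 57.5% of all such probe sets. By the 2-fold rule 8 of the 314 were higher and 8 were lower, against 1.61% and 1.77% of all probe sets. Of these, 6 were Present in both samples. Among the 67 Present in both samples, 4 were higher and 2 lower, against 6.34% and 4.15% of all such probe sets. SYNCRIP, an hnRNP relative also called hnRNP Q, was higher at 217833_at (824 and 1863, log2 ratio 1.18) and 217834_s_at (3363 and 6767, 1.01). A SYNCRIP probe set Absent in control cells, 236146_at, was higher too, 2.60-fold by its signals (416 and 1081). The remaining SYNCRIP probe sets Present in both samples had 0.98, 0.56 and 0.07.

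RBM39, a U2AF2 relative, was higher at 207941_s_at (6178 and 13104, 1.08), with 0.67 and 0.49 at its other probe sets Present in both samples. LUC7L, a U1 snRNP partner, was higher at 1557067_s_at (1694 and 4103, 1.28), while its other probe sets were Absent. RBM25, which binds exonic enhancers, was lower at 212027_at (2762 and 1048, -1.40) but had 0.55 and 0.12 at the others Present in both samples. MBNL2, a muscleblind splicing regulator, was lower at 203640_at (4561 and 2087, -1.13), with -0.40 and 0.01 elsewhere. By role, 10 probe sets of U1- and U2-associated factors were Present in both samples (median 0.53), 6 of the tri-snRNP and LSM group (-0.37), 5 of the Prp19 and catalytic group (0.06), 6 of the exon junction and export group (0.16), 3 of SR protein kinases (-0.33), 35 of other regulators (0.39) and 2 of snRNP assembly factors (0.49).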

How the data were processed

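The authors deposited 1 table per array with a MAS5 signal (a linear intensity), a detection p-value and a detection call for each probe set. The submitters' processing notes list Affymetrix Expression Console without a version. The deposited signals of each array have a trimmed mean of 500, the scaling applied by the authors. The highest detection p-value of a deposited Present call was 0.0490. Background correction and summarisation are the authors', since scanner files were not used here. The deposited series table held the same intensity values within 0.00050%.

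Genes were named through the array's annotation. Of the 242 members, 212 had 1 gene symbol and 30 had several, which are given by probe set. The 62 Affymetrix controls were left out. The log2 ratios were computed from the deposited signals without further normalization, with Python 3.11.15, numpy 2.4.6 and pandas 2.3.3, and plotted with matplotlib 3.10.9. The procedure was run on simulated data, and no error rate of the 2-fold calls is drawn from that run. Precision is limited by having a single array of each condition, and no test was made. Genes named were members past the 2-fold rule, the 6 genes the rule lists by full symbol, and genes with disagreeing probe sets. Up to 3 genes of each family were also named for having its brightest probe sets Present in both samples. Other splicing genes were named if past the rule while Present in both samples. Others were named after their values were seen. The members, lists and rules were chosen with earlier results of these data known. Alternatives were quantile normalization, centring, the series table, a floor at the median Absent signal, gene-specific or single-symbol probe sets, other fold and detection rules, and gene-level summaries.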

Additional observations from a re-analysis of the deposited data

How the results depend on the processing

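No paired analysis was possible because each condition has 1 array, and no array could be left out. A value is said to move beyond 0.33, the SD over the hybridisation spikes (0.42 over the polyA spikes), and a count beyond 1.5 times. The members' median log2 ratio of 0.31 ranged from 0.07 without a detection call to 0.35 with each gene at its brightest probe set. The comparison among the 639 brightest probe sets was added after the data were seen. Quantile normalization, centring (a shift of 0.11), the series table and the floor moved neither a family's median nor the counts of higher and lower members. They did shift single calls, since NONO 200057_s_at fell under 2-fold with quantile normalization and centring, PRP4K 211090_s_at did so with centring, and HNRNPDL 209067_s_at passed as lower with both. With gene-specific probe sets 7 members were Present in both samples, 2 were higher and 2 lower. The median among these was -1.07 for SNRP genes, from 1 probe set. For PRPF genes it was 1.39, from PRP4K 202126_at (2.72) and PRPF3 202251_at (0.06) alone. With a 4-fold rule 2 were higher and 1 was lower. With no detection call required 42 were higher and 48 lower, and the medians were -0.093 for hnRNP genes and -0.029 for PRPF genes. When Present calls on both arrays were required, 5 were higher. With a detection p-value of at most 0.01, 36 were Present in both samples and 2 were lower. With each gene at its brightest probe set the median for SF3A and SF3B was -0.81, from SF3B1 alone. The floor moved 14 of 65 named probe sets and quantile normalization moved 1. Of those past 2-fold with a Present call, 0 changed sign, although values near 0 did (PRPF3 202251_at was -0.05 with centring). Some probe sets Absent in both samples also changed sign with the floor, such as SFPQ 214016_s_at, from 2.37 to -0.02. The median for SNRP genes was 0.08 and turned to -0.03 with centring. The cause of these shifts was not tested.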
